A study of Zea mays with 10 samples.

Results

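Premeiotic anthers of maize were set against male germ cells isolated at prophase I of meiosis, using 4 of the 10 RNA-seq libraries of the series. All 4 libraries come from B73, the inbred line whose genome is the maize reference. They comprise premeiotic B73 anthers (2 libraries) and B73 prophase I male germ cells (2 libraries). The remaining 6 libraries, used here for levels only, are prophase I anthers of B73, prophase I anthers of ms28 and prophase I male germ cells of ms28 (2 libraries each). ms28 is a male-sterile maize mutant in an ARGONAUTE gene, and its genetic background relative to B73 was not established here. The labels' protocols have both lines grown in a field or in a greenhouse and do not tie a library to either. They also do not say how germ cells were isolated or whether replicates are different plants. The spread between libraries may therefore be technical.

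An anther is a small pollen-producing organ in which several somatic wall layers, among them the tapetum that feeds the developing pollen, enclose the germ cells. Before meiosis the wall layers and the germline precursors still form and divide by mitosis. At prophase I the germ cells, then called meiocytes, pair and recombine their chromosomes. In grasses the anther also makes phased small RNAs (phasiRNAs), cut from long noncoding precursors after cleavage guided by a miRNA. The shorter of the 2 size classes appears before meiosis and the longer during it, and ARGONAUTE proteins carry them. The series asks which transcripts the shorter class cleaves. A difference between premeiotic anthers and prophase I germ cells joins a change of stage with a change of tissue, and these cannot be told apart here. The groups were also normalized separately, with the premeiotic unit not stated, and an effect of this cannot be told apart either. In bulk libraries, fewer cells of a type and less RNA per cell cannot be told apart either.

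The comparison covers 22760 gene models, those listed in both tables, of 43789 in the premeiotic table and 22786 in the germ cell table. The 26 features listed for germ cells only were all miRNA loci, and the premeiotic table listed 0 miRNA loci. No miRNA precursor could therefore be compared. The files give gene models as IDs without names, and 0 of the 22760 matched the gene table of reference assembly Zm-B73-REFERENCE-NAM-5.0. No ID is given a name or a role below, and the labelled tissues were not checked against marker genes. Germ cell values were taken as TPM (transcript abundance as a share of the library, scaled to 1000000) from their column sums. No source used here states the unit of the premeiotic values. Both tables were normalized separately, so each gene model was ranked within its library, from percentile 0 for the lowest to 100 for the highest. A gene model counts as shifted when all 4 pairs of a germ cell and a premeiotic library have the same sign. No test was made across the tables, and depth per library is unknown, since no file gives counts.

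Most gene models ranked differently in the groups, with the same sign in all library pairs, and the differences were wider than those between replicates. Of the 22760 gene models, 9838 (43.2%) ranked higher and 10025 (44.0%) ranked lower in germ cells in all 4 library pairs. The median absolute difference in rank lay between 12.8 and 14.1 points over the 4 pairs. It was 1.25 points between the premeiotic libraries and 3.53 points between the germ cell libraries. At least 25 points separated between 5471 and 6255 gene models in each germ cell against premeiotic pair. The same distance separated 9 gene models between the premeiotic libraries and 147 between the germ cell libraries. Replicates share a unit and a normalization and the groups do not. How much of the wider difference comes from processing was not tested. Agreement in sign over all library pairs was also common between ms28 and B73 germ cells. There 32.0% of the 22760 gene models ranked lower in ms28 and 32.1% ranked higher.

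**Figure D1:**
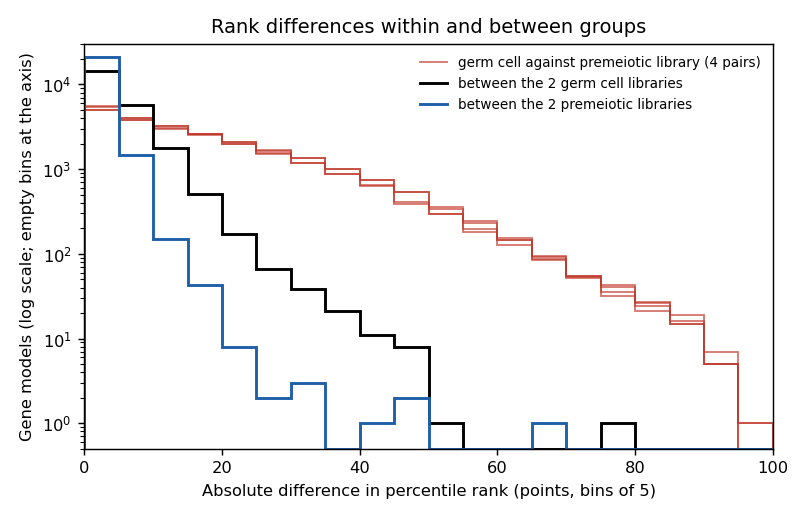
Number of gene models (log scale) by absolute difference in percentile rank (points, bins of 5), for the 4 pairs of a germ cell and a premeiotic library (red), the pair of B73 germ cell libraries (black) and the pair of premeiotic libraries (blue). The red lines lie above the others between 10 and 95 points, and the premeiotic libraries are the closest to each other.

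Across the 22760 gene models, the rank correlation between a premeiotic and a B73 germ cell library was 0.664 for germ cell replicate 1 and 0.699 for replicate 2, with either premeiotic library. It was 0.995 between the premeiotic libraries and 0.972 between the germ cell libraries. The ms28 germ cell libraries stood closer to the premeiotic ones, at 0.749 to 0.752, and at 0.921 to 0.940 to the B73 germ cell libraries. Over the 22377 gene models in all 3 tables, the B73 prophase I anther libraries correlated with the premeiotic ones at 0.812 to 0.813 (replicate 1) and 0.885 to 0.886 (replicate 2). These are descriptions across genes, which are not independent replicates, and the libraries compared within a table also share its filter.

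The most abundant transcripts of each group were mostly different, but most of them ranked high in the other group too. The top 100 of both premeiotic libraries held 97 gene models and the top 100 of both germ cell libraries held 83. These lists shared 21, which is 21.6% of the premeiotic list and 25.3% of the germ cell list. Of the 97 abundant premeiotic gene models, 69 stood at or above percentile 90 in both germ cell libraries. Of the 83 abundant germ cell gene models, 75 stood at or above percentile 90 in both premeiotic libraries. Of the 2198 gene models at or above percentile 90 in both premeiotic libraries, 54.8% were also there in both germ cell libraries, and 3.09% were below percentile 50 in both.

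Among the gene models listed for both groups, few of the most abundant stood below percentile 50 in both libraries of the other group. Of those abundant in germ cells there were 2, Zm00001d003237 and Zm00001d003240, which are named here after their values were seen. Zm00001d003237 read 2229 and 2528 TPM in B73 germ cells and 0.885 and 0.376 in premeiotic anthers. Zm00001d003240 read 1252 and 1368 TPM in germ cells and 0.695 and 0.428 before meiosis. Both stood above percentile 99 in each germ cell library and below percentile 18 in each premeiotic library, so the groups lay far apart. Of those abundant in premeiotic anthers there was 1, Zm00001d030698, also named after its values were seen. It read 1146 and 1139 in premeiotic anthers and 2.20 and 2.90 TPM in B73 germ cells, which is percentile 99.6 in each premeiotic library and percentiles 34.0 and 35.3 in germ cells. In B73 prophase I anthers Zm00001d030698 read 143 and 421 TPM. A further 10 gene models at 100 or more in both premeiotic libraries (123 to 1945) are not listed for germ cells and could not be ranked.

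Large shifts, of at least 50 points in all 4 library pairs, were found for 368 gene models higher in germ cells (1.62% of 22760) and 260 lower (1.14%). The members nearest to this limit had smallest shifts of 50.04 points higher and -50.004 points lower, and the nearest outside had 49.99 and -49.996. At 25 points the counts were 2258 higher (9.92%) and 2303 lower (10.1%), and at 75 points 40 higher (0.176%) and 12 lower (0.0527%). In ms28 germ cells, compared with the same premeiotic libraries, 276 gene models stood at least 50 points higher (1.21%) and 146 lower (0.641%). The B73 and ms28 counts share the premeiotic libraries. Gene models not listed for germ cells could not count as lower, and 105 of them read 10 or more in both premeiotic libraries. The lower count in B73 germ cells was 409 without B73 germ cell replicate 2 and 430 with only gene models at 1 or more in at least 2 of the 4 libraries. Ranking each table over all of its features gave 21 higher and 1615 lower, since the premeiotic table lists many low features that the germ cell table does not.

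**Figure D2:**
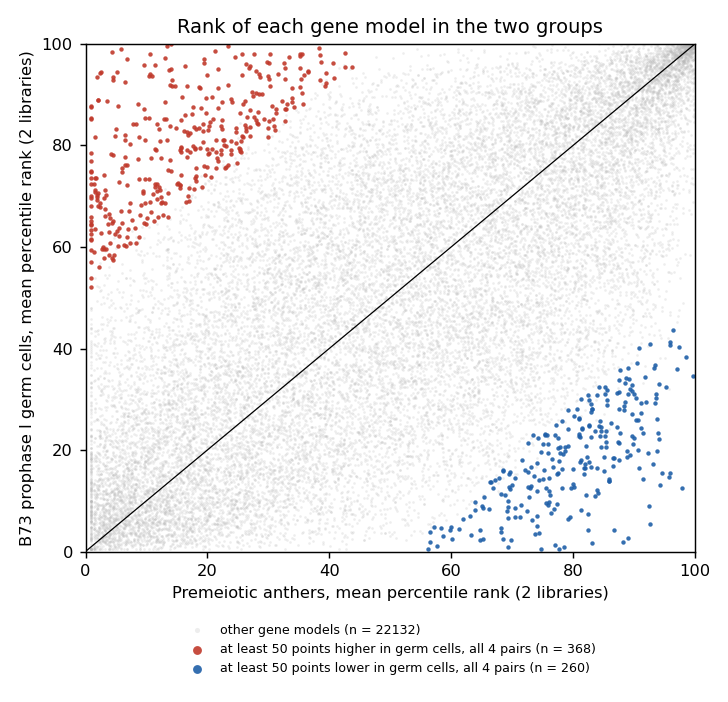
Mean percentile rank of each of the 22760 gene models in premeiotic anthers (x axis, 2 libraries) and in B73 prophase I germ cells (y axis, 2 libraries); the line marks equal ranks. Red points are the 368 gene models at least 50 points higher and blue points the 260 at least 50 points lower in germ cells in all 4 library pairs.

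The 368 gene models that were much higher in germ cells started from the low end of the premeiotic ranking. Their median percentile was 15.7 and 15.0 in the premeiotic libraries and 81.5 and 80.3 in the germ cell libraries. Their median value was 0.726 and 0.678 before meiosis and 39.7 and 34.7 TPM in germ cells. In germ cells 347 of them read 10 TPM or more in both libraries and 65 read 100 TPM or more. Before meiosis 205 read below 1 in both libraries, and 25 were listed at 0 in both. Together they made up 3.27 and 3.02% of the summed TPM of the compared gene models in germ cells, against 0.0451 and 0.0439% of the summed values before meiosis. These values describe how the set was chosen.

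The 260 gene models that were much lower in germ cells went from high to low ranks. Their median percentile was 81.2 and 81.0 in premeiotic anthers and 18.0 and 18.1 in germ cells. Their median value was 27.9 and 27.4 before meiosis and 0.648 and 0.856 TPM in germ cells. In premeiotic anthers 247 read 10 or more in both libraries and 15 read 100 or more in both, in the unit of that table. In germ cells 132 read below 1 TPM in both libraries, and 3 were listed at 0 in both. Their share of the summed values was 1.41 and 1.44% before meiosis and 0.0225 and 0.0300% in germ cells. Here too the values describe how the set was chosen, and the set holds only gene models listed for germ cells.

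Among the gene models listed for both groups, those with the largest shifts by their smallest library pair were Zm00001d003232 and Zm00001d000951 upward. Downward they were Zm00001d016693 and Zm00001d003380. Zm00001d003232 read 0.0988 and 0.0605 in premeiotic anthers and 481 and 448 TPM in B73 germ cells. It moved from percentiles 4.96 and 3.65 to 98.6 and 98.4, a shift of 93.4 to 94.9 points over the pairs. Whole B73 anthers at prophase I read 249 and 107 TPM, so this gene model was abundant in every B73 prophase I library and close to the floor before meiosis. It read 78.5 and 98.0 TPM in ms28 germ cells, below both B73 germ cell libraries.

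Zm00001d000951 read 0.0329 and 0.0234 in premeiotic anthers and 141 and 168 TPM in B73 germ cells (154.8 ± 18.8 TPM, SD, n = 2). Its shift was 91.1 to 92.6 points. It read 128 and 126 TPM in ms28 germ cells, where its percentiles of 93.4 and 93.3 lay just below the B73 percentiles of 93.9 and 95.0. The prophase I anther table does not list it. Zm00001d003232 and Zm00001d000951 also led the gene models with a mean of at least 100 TPM in germ cells.

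Zm00001d016693 read 50.3 and 48.3 in premeiotic anthers and 0.0172 and 0.101 TPM in B73 germ cells, and stood 85.8 to 86.9 points lower there. Whole B73 anthers at prophase I still read 22.3 and 29.7 TPM, and ms28 anthers 24.1 and 35.2 TPM. In ms28 germ cells it read 1.35 and 1.59 TPM, at percentiles 23.1 and 24.7, above both B73 germ cell libraries. This transcript was thus well represented in every anther library of both stages and lower in the isolated germ cells of both lines, most so in B73.

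Zm00001d003380 read 308 and 272 in premeiotic anthers and 0.373 and 0.521 TPM in B73 germ cells. Its percentiles moved from 98.1 and 97.8 to 12.2 and 12.7. It read 63.6 and 74.8 TPM in B73 prophase I anthers, 122 and 207 TPM in ms28 anthers, and 4.05 and 5.74 TPM in ms28 germ cells. All anther libraries were thus above both germ cell groups, and ms28 germ cells, at percentiles 39.9 and 46.7, lay between B73 germ cells and the anthers.

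Among gene models with a mean of at least 100 in premeiotic anthers, Zm00001d048634 followed Zm00001d003380. It read 97.8 and 120 before meiosis and 0.520 and 0.431 TPM in B73 germ cells, 78.2 to 84.0 points lower. Its ms28 germ cell level differed, at 18.4 and 18.3 TPM, or percentile 69.4 and 69.5 against 15.5 and 10.9 in B73 germ cells. In prophase I anthers it read 21.1 and 13.6 TPM (B73) and 34.0 and 6.59 TPM (ms28), a wide spread between the ms28 libraries.

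**Figure D3:**
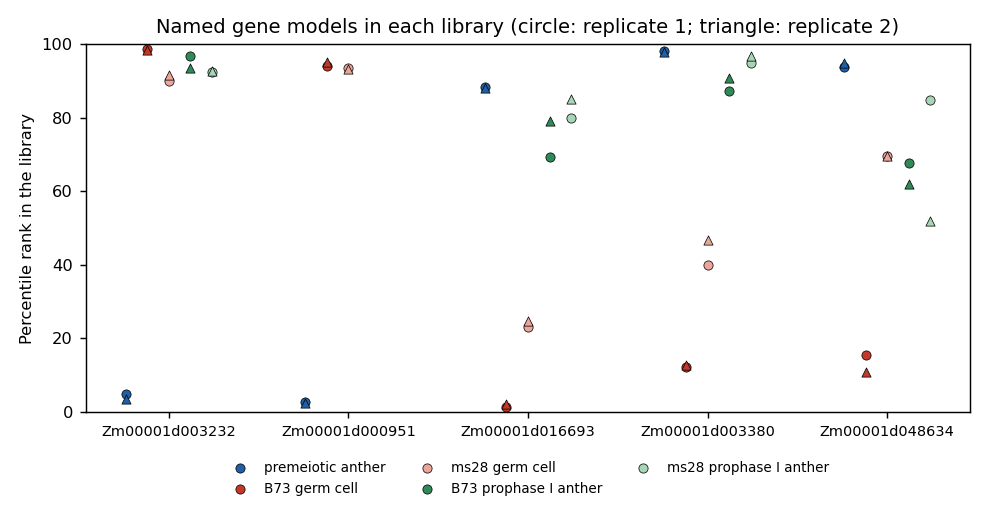
Percentile rank within each library (y axis, 0 to 100) of the 5 gene models named by rule (the 2 largest shifts in each direction, and the same among gene models with a mean of at least 100 in the higher group), for the 5 groups with 2 libraries each (circles and triangles for replicates 1 and 2); Zm00001d000951 has no anther values. Premeiotic and germ cell ranks are over 22760 gene models, and prophase I anther ranks over the 22377 in all 3 tables. The premeiotic and B73 germ cell points lie at opposite ends for all 5, and the 3 gene models low in B73 germ cells lie above percentile 50 in every anther library.

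The prophase I anthers and the ms28 germ cells were not used to choose the shifted gene models, and their levels there were read over the 22377 gene models in all 3 tables. Of the 368 higher in germ cells, 364 are listed there. Their median percentile in B73 prophase I anthers was 62.1 in replicate 1 and 51.7 in replicate 2, between the premeiotic and germ cell levels. Of the 364, 186 (51.1%) stood at or above percentile 50 in both B73 anther libraries, against 46.2% of all gene models. A smaller number, 29 (7.97%), stood below percentile 25 in both, against 21.6% of all gene models. At or above percentile 75 in both stood 75 (20.6%), against 22.2% of all gene models. The set thus spans high and low ranks in whole B73 prophase I anthers. Its shares at or above percentiles 50 and 75 lie near those of all gene models. The choice by low premeiotic ranks favoured smaller shares, since these correlated with B73 anther ranks at 0.812 to 0.886. The choice by high germ cell ranks, correlated at 0.713 to 0.758, favoured larger ones. Gene models of like ranks were not compared, so nearness to all gene models is a description only. Replicate 1 of the B73 anthers ranked the set higher than replicate 2, so its median level there depends on the library.

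Of the 260 gene models much lower in germ cells, 257 are listed in all 3 tables. Their median percentile was 57.7 and 69.3 in B73 prophase I anthers and 66.6 and 67.6 in ms28 prophase I anthers, against 81.0 and 80.7 before meiosis in the same ranking. Of the 257, 152 (59.1%) stood at or above percentile 50 in both B73 anther libraries, against 46.2% of all gene models, and 16 (6.23%) stood below percentile 25 in both, against 21.6%. At or above percentile 75 in both stood 57 (22.2%), against 22.2% of all gene models. The set was chosen for high premeiotic ranks, which correlated with those of B73 prophase I anthers at 0.812 to 0.886. A share at or above percentile 50 larger than that of all gene models was therefore favoured by this choice. The choice by low germ cell ranks, correlated with anther ranks at 0.713 to 0.758, favoured a smaller one. Gene models of like premeiotic rank were not compared. Of the 257, most were thus at or above percentile 50 in whole B73 anthers of the same stage.

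Each prophase I group has its own count against the premeiotic libraries over the 22377 gene models, and these comparisons share their premeiotic libraries. In B73 germ cells 380 gene models stood at least 50 points higher (1.70%) and 273 lower (1.22%). In B73 prophase I anthers 202 stood at least 50 points higher (0.903%) and 16 lower (0.0715%). In ms28 germ cells the counts were 289 higher (1.29%) and 153 lower (0.684%), and in ms28 prophase I anthers 253 higher (1.13%) and 51 lower (0.228%). Downward shifts of this size were scarcer in whole anthers of either line than in isolated germ cells. The germ cell and anther tables were filtered separately.

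**Figure D4:**
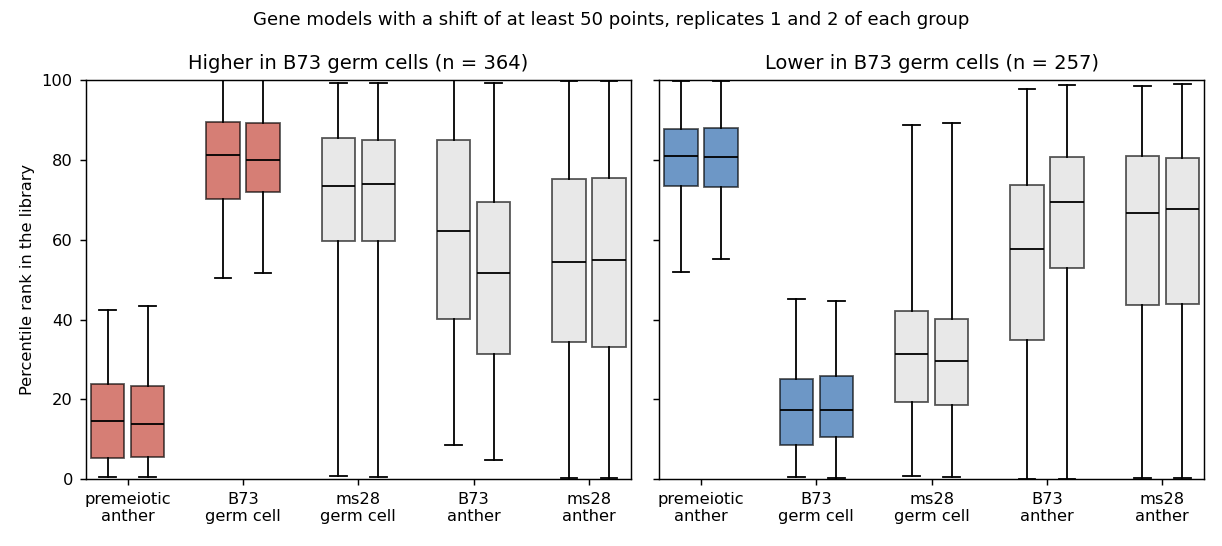
Percentile rank (y axis) in each of the 10 libraries of the 364 gene models at least 50 points higher (left) and the 257 at least 50 points lower (right) in B73 germ cells, over the 22377 gene models in all 3 tables; boxes span the quartiles, lines mark medians and whiskers reach the extremes. Coloured boxes are the libraries that chose the sets, and grey boxes are libraries that did not, whose medians lie between the coloured extremes.

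Ranks compress differences among abundant transcripts, and the log2(value + 1) scale, centred on the median gene model of each library, shows what they hide. On it, 1970 gene models (8.66% of 22760) stood at least 4-fold higher and 1807 (7.94%) at least 4-fold lower in B73 germ cells in all 4 library pairs. Of these, 412 higher (20.9%) and 217 lower (12.0%) gene models had a smallest rank shift under 25 points. All 368 and all 260 gene models with a shift of at least 50 points were also past 4-fold. Their median centred log2 difference was 4.21 and -4.03. On this scale Zm00001d003237 stood farthest up, by 10.2 in its closest pair, and Zm00001d030698 farthest down, by -8.35 in its closest pair.

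In ms28 germ cells the shifted gene models stood less far from their premeiotic ranks than in the B73 germ cells that chose them. The median percentile of the 368 higher gene models was 74.0 and 74.4 in ms28 against 81.5 and 80.3 in B73 germ cells. Of the 368, 257 (69.8%) ranked lower in both ms28 germ cell libraries than in both B73 ones, and 37 (10.1%) ranked higher. Among all 22760 gene models these shares were 32.0 and 32.1%. The 260 lower gene models had medians of 31.9 and 30.4 in ms28 against 18.0 and 18.1 in B73, and 205 of them (78.8%) ranked higher in both ms28 libraries. The B73 germ cell ranks chose the sets and stand on one side of each of these shares, which are therefore descriptions only. Among the 364 listed in all tables, 12 of the higher gene models (3.30%) stood below percentile 25 in both ms28 germ cell libraries and 154 (42.3%) at or above percentile 75. Of all 22377 gene models, 22.7% and 23.4% did.

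Some strongly shifted gene models carry neighbouring ID numbers, a property that the ranking did not use. Of the 368 higher gene models, 29 had another member at the previous or next number, and of the 260 lower ones 25 did. Both tables list 350 gene models at a number just before or after a higher member, and 29 of these (8.29%) were themselves members, against 1.62% of all gene models. For the lower members 25 of 253 such gene models (9.88%) were members, against 1.14% of all. Runs of 3 or more members whose numbers lie at most 3 apart were found 7 times among the higher and 3 times among the lower gene models. Gene numbers are not coordinates, and none are given because the build of the reference table differs from that of the files. Whether neighbouring models are near-identical copies that share reads is not known from IDs, so the split of reads among them is uncertain.

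The longest run held 6 higher gene models, from Zm00001d003231 to Zm00001d003240, and was singled out after its values were seen. All 6 gene models that both tables list in that span were members, among them Zm00001d003232, Zm00001d003237 and Zm00001d003240. In premeiotic anthers the 6 read at most 0.885 in either library. In B73 germ cells 5 of them read between 353 and 2528 TPM, while Zm00001d003235 read 9.84 and 10.6 TPM. Zm00001d003231 read 443 and 353 TPM, and Zm00001d003234 read 670 and 598 TPM. Their premeiotic percentiles lay at or below 17.6, and those of the 5 abundant models lay at or above 97.8 in germ cells, as the choice of the set by shift favours.

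In ms28 germ cells all 6 read lower than in both B73 germ cell libraries, for example 653 and 805 TPM for Zm00001d003237 and 65.7 and 60.3 TPM for Zm00001d003231. Whole prophase I anthers also held them. Zm00001d003237 read 1596 and 651 TPM in B73 anthers and 1241 and 1163 TPM in ms28 anthers. In each of the 6, B73 anther replicate 1 was above replicate 2, so their anther level rests on a wide spread between libraries.

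The next longest run held 4 higher gene models, from Zm00001d016387 to Zm00001d016393, also singled out after their values were seen. All 4 were listed at 0 in both premeiotic libraries and read 6.50 to 44.7 TPM in B73 germ cells. Replicate 2 was higher than replicate 1 in each, for example 44.7 against 12.6 TPM for Zm00001d016391, so the level varied widely between replicates. In ms28 germ cells they read 0.731 to 2.07 TPM, below every B73 germ cell value of the run. In whole prophase I anthers of ms28 they were present, with Zm00001d016391 at 16.2 and 10.3 TPM against 27.4 and 14.3 TPM in B73 anthers. By rank Zm00001d016391 hardly differed there, at percentiles 73.4 and 62.7 in ms28 anthers and 73.7 and 63.4 in B73 anthers. The model Zm00001d016388 lies within the same span and was not a member, with 5.71 and 6.85 before meiosis and 9.77 and 18.1 TPM in B73 germ cells. It read 36.0 and 21.2 TPM in ms28 germ cells, above both B73 values, whereas the 4 members read below theirs.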

How the data were processed

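Per the submitters' processing notes, the tools were HISAT2 2.2.1, Trimmomatic 0.33, featureCounts 2.0.1, DESeq2 and Cufflinks and the build was B73 RefGen_v4. The role of each tool is not given there. Per the labels' protocols, total RNA was turned into cDNA by a Smart-seq type method, which does not mark strand. Reads of overlapping antisense genes cannot be told apart. The deposited prophase I values were taken as TPM because each column summed to 99.1 to 99.4% of 1000000 and the values were not multiples of a common step. The deposited premeiotic score has no stated unit, and its columns summed to 83.0 and 83.2% of 1000000. If it is not scaled by gene length, ranks also carry length. Its 1 value below 0 (-1e-06) was set to 0. Columns were matched by header genotype and replicate and by the table's tissue and stage, with WT read as B73.

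Percentile ranks used average ranks for ties over the 22760 shared gene models. Prophase I anthers were ranked over the 22377 gene models in all 3 tables. As a further scale, log2(value + 1) was centred on each library's median feature. Named gene models were, in each direction, the 2 with the largest smallest-pair shift and the same among those with a mean of at least 100 in the higher group. All miRNA loci were to be named, and 0 could be. The marker lists for meiocytes, tapetum and wall cells matched 0 gene models. Gene models and sets were chosen with earlier results of these data known. Rank counting was tested on simulated data with planted shifts larger than the limit and little noise. This checks the counting only, since the simulation held no difference in unit or filter between the groups. Alternatives changed the ranked features, filter, ties, shift size, scale and libraries. Python 3.11.15, pandas 2.3.3, numpy 2.4.6 and matplotlib 3.10.9 were used.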

Additional observations from a re-analysis of the deposited data

How the results depend on the processing

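No paired analysis was possible because the results come from no test. Without 1 library at a time, the count of gene models at least 50 points higher ran from 402 to 480 and that of lower ones from 283 to 409, the last without B73 germ cell replicate 2; fewer pairs have to pass. Without 1 library the counts of any size ran from 10264 to 10883 higher and from 10429 to 11083 lower. Limits of 40 and 60 points gave 754 and 164 higher and 694 and 89 lower. With only gene models at 1 or more in at least 2 of the 4 libraries, 508 stood higher and 430 lower, including 354 of the 368 and 252 of the 260. Ranking over all features of each table gave 21 higher and 1615 lower by 50 points, and 2747 higher and 18407 lower of any size, because the premeiotic table lists many more low features. Setting features not listed in germ cells to 0, chosen after seeing the data, gave 73 higher and 161 lower by 50 points and 20443 and 17159 of any size over 43789 features. The 21029 features set to 0 then tie in germ cells below every listed gene model above 0, which limits downward shifts of listed gene models. Of the gene models reported, 46 of the 368 and 3 of the 260 passed 50 points there. The direction of the 5 named gene models held in all 55 alternative values, with sizes from 42.1 to 97.0 points on the rank scale. Centred log2 values gave 9864 higher and 9955 lower with a pseudocount of 1, and 10081 and 9813 with 0.1. The miRNA results could not be computed, and depth is unknown.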

Other observations

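The premeiotic table holds 21029 gene models that the germ cell table does not list, and they were not ranked here. They made up 1.23 and 1.47% of the summed premeiotic values. Of these gene models 927 read 1 or more in both premeiotic libraries, 105 read 10 or more, and 44 of the 105 are listed in the prophase I anther table. At 100 or more in both premeiotic libraries there were 10, of which 1 is listed in the prophase I anther table.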
